A study of Mus musculus with 4 samples.

Results

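The class II cells of the fetal liver LSK gate are a small set of cells with messenger RNA for MHC class II chains. They were chosen by their own RNA: a cell barcode needed at least 8000 gene UMIs (unique molecular identifiers, each counting 1 captured transcript), at most 10% mitochondrial UMIs, and at least 10 UMIs of H2-Aa, H2-Ab1 and H2-Eb1 together. This rule kept 65 of 8094 cells, 42 of 5352 in the control library and 23 of 2742 in the knockout library. The LSK gate takes lineage-negative cells with Sca1 and c-Kit on their surface and holds blood stem cells and early progenitors. The cells came from mouse fetal livers at day 17.5 of gestation, were enriched with c-Kit beads and sorted, and were read by CITE-seq, which counts RNA and antibody-linked tags in 1 cell. Both genotypes carried floxed Bclaf1 alleles. The control (WT) was Bclaf1f/f alone, and the knockout (KO) was Vav-Cre:Bclaf1f/f, in which Vav drives the Cre recombinase in blood cells. Each genotype was 1 pool of 10 embryos and 1 library, so cells were not replicates, no test or p-value was possible, and loss of Bclaf1, presence of Cre and library cannot be told apart. All intervals below are 95% intervals that cover counting error only.

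MHC class II molecules present peptides from taken-up proteins to CD4 T cells. The alpha and beta chains assemble in the endoplasmic reticulum with the invariant chain, encoded by Cd74. Cathepsins trim that chain in endosomes and H2-DM exchanges its remaining fragment for a peptide. Dendritic cells, B cells and macrophages make these chains constitutively or on activation, under the coactivator CIITA, which binds a complex of RFX, CREB and NF-Y factors on a conserved promoter module. Conventional dendritic cells type 1 (cDC1) are the dendritic branch that depends on IRF8, BATF3 and ID2. They are known for taking up dead cells and presenting their antigens.

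The NF-Y part of that promoter module, the Y box, holds the letters GATTGG, so the start regions of the class II genes are shown first. Of 18 genes for class II chains, loading and invariant chain, 14 had promoters searched in RefSeq's promoter table (GRCm38.p6). H2-Ab1, Cd74, H2-Ea and Ctsh were not searched. GATTGG, searched on both strands in the 250 bases before each listed start, was found in 8 of the 14. These were H2-Aa, H2-Eb1, H2-Eb2, H2-DMa, H2-DMb1, H2-DMb2, H2-Oa and H2-Ob, all of which encode class II or class II-like chains. It was not found before Ctss, Ctsl, Lgmn, Ifi30, Marchf1 or Sppl2a. Over the whole table, 14.6% of 32851 promoters held these letters in that window. The 4 sequences below are the 120 bases before the start, written 5′ to 3′ on the gene's strand, with the motif in capitals (CCAATC is the same motif on the other strand). They lie at chr17:34287824-34287943 on the minus strand for H2-Aa, and on the plus strand at chr17:34305747-34305866 for H2-Eb1, chr17:34153071-34153190 for H2-DMb1 and chr17:34145129-34145248 for H2-DMb2.
H2-Aa: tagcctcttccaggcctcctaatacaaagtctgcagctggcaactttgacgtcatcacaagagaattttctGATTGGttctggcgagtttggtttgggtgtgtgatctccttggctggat
H2-Eb1: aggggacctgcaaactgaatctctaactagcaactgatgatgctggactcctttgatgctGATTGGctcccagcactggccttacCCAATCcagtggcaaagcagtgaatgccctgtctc
H2-DMb1: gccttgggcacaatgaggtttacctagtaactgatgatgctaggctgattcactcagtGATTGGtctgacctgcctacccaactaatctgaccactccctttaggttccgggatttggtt
H2-DMb2: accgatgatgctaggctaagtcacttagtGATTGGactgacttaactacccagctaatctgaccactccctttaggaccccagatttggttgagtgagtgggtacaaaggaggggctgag
The motif begins 49 bases before the start of H2-Aa, 60 before H2-Eb1, 62 before H2-DMb1 and 91 before H2-DMb2, and H2-Eb1 holds it again 35 bases before its start on the other strand. A match describes the letters and is no binding site. H2-Eb2 holds the motif and had 0 UMIs in the class II cells of both libraries.

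Class II cells made up 0.785% of WT cells (exact Clopper-Pearson interval 0.566 to 1.06%) and 0.839% of KO cells (0.532 to 1.26%). The difference of KO minus WT was 0.054 percentage points, with a Newcombe interval of -0.337 to 0.518, so no difference was detectable at this number of cells. A gap separated them from the rest. The lowest class II cells held 14 and 15 class II UMIs in WT and 16 and 23 in KO, and the highest cells outside held 8 and 7 in WT and 8 and 8 in KO. No cell held between 10 and 13. The median was 119 UMIs in WT and 171 in KO, and the highest cell held 279 and 398. Per 10000 gene UMIs, the 3 genes gave 54.3 in class II cells and 0.0741 in other LSK cells of WT, and 51.8 and 0.0960 in KO. Empty droplets, taken as barcodes with 100 to 300 gene UMIs, gave 0.495 in WT and 0.539 in KO. Class II cells held 82.9% of all class II UMIs of WT cells and 80.04% of those of KO cells. They were slightly shallower than other cells, with medians of 19308 against 22764 gene UMIs in WT and 28176 against 33656 in KO. The libraries shared 5 cell barcodes, 1 of them that of a class II cell.

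**Figure D1:**
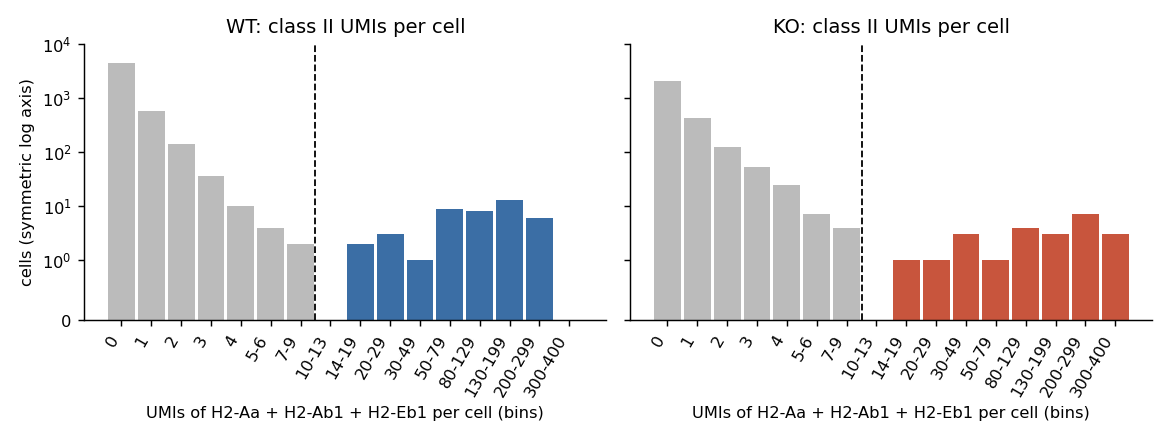
Number of LSK cells (symmetric log axis) by UMIs of H2-Aa, H2-Ab1 and H2-Eb1 per cell, in bins, for WT and KO. Most cells hold 0, the bin from 10 to 13 is empty, and the 42 WT and 23 KO class II cells lie above the gap.

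The label of dendritic-like cells was set beside 3 groups of markers. All 65 cells had at least 3 of the 6 markers Cd74, H2-Aa, H2-Ab1, H2-Eb1, Batf3 and Id2 at 2 or more UMIs each. The rule itself used 3 of these 6, so the choice of cells largely fixed this count and it is no check of the label. By the same count over 12 cDC1 markers, 39 of 42 WT cells (92.9%, exact interval 80.5 to 98.5%) and 21 of 23 KO cells (91.3%, 72.0 to 98.9%) passed, against 1.62% and 3.38% of other LSK cells. With every cell thinned to 8000 UMIs, 34 and 17 passed. Clec9a, the cDC1 receptor for dead cells, was read in 32 of 42 WT and 18 of 23 KO cells, at 132 and 96.9 UMIs per 1000000 gene UMIs (CPM), against 0.128 and 0.115 CPM in other cells. Xcr1, the chemokine receptor that defines mature cDC1, was nearly absent, with 3 UMIs in 1 WT cell and 0 in KO. Itgae (CD103) stood at 7.51 and 12.9 CPM. Cd24a of the same list was read in 59.5% and 69.6% of class II cells, against 69.6% and 78.0% of other cells. Of the 12 genes 10 reached the level measured below, and 9 of these were at least 2-fold higher in both libraries and 0 lower. The name cDC1-like therefore rests on genes such as Clec9a, Cadm1, Naaa, Tlr3, Batf3 and Irf8, and not on Xcr1 or Cd24a. Cells with 3 markers of type 2 dendritic cells numbered 2 in WT (4.76%) and 4 in KO (17.4%), against 1.37% and 2.94% of other LSK cells. After thinning 1 and 0 class II cells passed. Clec10a, Mgl2 and Clec4a4 of that list were at 0 UMIs in class II cells of both libraries, while Csf1r and Klf4 were higher than in other cells.

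Markers of other cells the gate could hold were counted in the same way. For neutrophils, T, NK or innate lymphoid cells, mast cells, eosinophils, endothelial cells and stellate cells, 0 of 42 and 0 of 23 class II cells had 3 markers. Other LSK cells rarely passed these lists either, at most 2.05% in WT and 4.52% in KO. These counts of 0 therefore do not set class II cells apart from other LSK cells. Counts were 0 and 1 for B cells, against 0.960% and 1.21% of other cells, and 0 and 1 for macrophages, against 0.0565% and 0.294%. The plasmacytoid dendritic cell list was passed by 4 and 5 class II cells (9.52% and 21.7%), against 17.65% and 28.98% of other cells. After thinning 0 class II cells of either library passed it, against 1.68% and 1.84% of other cells. Cd79a of B cells was at 0 UMIs in both libraries and C1qa of macrophages at 1 and 2 UMIs. Other genes of the B cell list went the other way. Of its 2 genes at the level measured below, 1 was at least 2-fold higher in both libraries and 0 lower. The whole B cell list summed to 135 against 81.6 CPM in WT and 118 against 70.9 in KO. Ccr7, which marks migrating dendritic cells, was at 0 in both. The monocyte list was passed by 38 of 42 and 23 of 23, against 49% and 49.5% of other LSK cells. Thinned to 8000 UMIs, 76.2% and 65.2% of class II cells passed it, against 12.9% and 9.34% of other cells. Of its 8 measured genes 6 were at least 2-fold higher in both libraries and 0 lower, Ctss and Ccr2 among them. F13a1 and Fn1 of the same list, singled out after their values were seen, each had at most 1 UMI per library. The megakaryocyte list was passed by 15 of 42 (35.7%) and 13 of 23 (56.5%) class II cells, against 18.8% and 31.3% of other cells, and after thinning by 2 and 0 class II cells. The lymphoid progenitor list was passed by 5 and 7 class II cells (11.9% and 30.4%), against 22.0% and 26.9% of other cells, and after thinning by 1 and 0. The stem cell marker list was passed by 2 and 4 class II cells (4.76% and 17.4%), against 56.2% and 59.9% of other LSK cells.

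Class II cells were next compared with the other LSK cells of their own library, on summed UMIs. Because these cells were selected on RNA of the same cells, these differences are described and not tested. A gene was counted as higher or lower where its CPM differed at least 2-fold in the same direction in both libraries. Of 5653 genes with at least 20 CPM in class II or other cells of both libraries, 516 (9.13%) were higher and 361 (6.39%) lower, and 81 were at least 16-fold higher. The median log2 ratio of all measured genes was -0.22 in WT and -0.21 in KO. With median-of-ratios scaling, which adds 0.19 to these log2 ratios in both libraries, the counts were 626 higher and 245 lower. Haemoglobin UMIs of class II cells put the share of free RNA at up to 31.0% in WT and 22.98% in KO. A single cell held 105 of the 130 haemoglobin UMIs in WT and 46 of 63 in KO, and without the 8 cells that carry progenitor markers, described further on, the limit was 5.59% and 8.84%.

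H2-Eb1 and H2-Aa had the highest ratios of all named genes, a direction the rule fixes for the 3 chains. Between the lowest and highest WT cells H2-Aa ranged from 11 to 110 UMIs with a median of 55, and in KO from 5 to 162 with a median of 76. Its level was 2382 CPM against 0.484 in other WT cells and 2168 against 0.557 in KO, a log2 ratio of 12.27 and 11.93. H2-Eb1 stood at 1176 against 0.157 CPM in WT and 1260 against 0.221 in KO. H2-Ab1 stood at 1868 against 6.77 and 1753 against 8.82 CPM, log2 ratios of 8.11 and 7.63, the smallest of the 3 chains. H2-Aa (chr17:34282744-34287823), H2-Ab1 (chr17:34263227-34269418) and H2-Eb1 (chr17:34305867-34316674) are neighbours in the MHC (GRCm38.p6). Cd74, the invariant chain, was not part of the rule. It had 6 to 185 UMIs per WT cell (median 72) and 18 to 237 per KO cell (median 96), and 3614 against 3.51 CPM in WT and 3249 against 2.10 in KO. Every class II cell of both libraries held Cd74.

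Of 13 genes for the invariant chain and peptide loading, 11 were measured, 10 of them were higher and 1 lower in both libraries. The chains of H2-DM, the peptide exchange factor, were higher, with log2 ratios of 3.11 and 3.33 (WT, then KO) for H2-DMa, 5.53 and 5.53 for H2-DMb1 and 3.79 and 3.77 for H2-DMb2. H2-Oa, a chain of the H2-DM inhibitor H2-O, was higher at 3.04 and 3.32, and its partner H2-Ob did not reach the minimum level at 13.9 and 25.8 CPM. The proteases differed in direction. Ctss, the cathepsin that trims the invariant chain in dendritic cells, stood at 232 against 6.99 CPM in WT and 180 against 5.67 in KO. Ctsl, the cathepsin that does so in thymic epithelium, stood at 10.7 against 36.6 and 12.9 against 36.7 CPM, and was the 1 lower gene. Ctsh (log2 5.22 and 4.99), the thiol reductase gene Ifi30 (4.54 and 3.78) and March1, a ubiquitin ligase that removes class II molecules from the surface (6.43 and 6.54), were higher.

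Of 10 genes that control class II transcription, 6 were measured and only Ciita was higher in both libraries. Ciita, the class II coactivator, had 63.3 against 0.149 CPM in WT and 64.6 against 0.0672 in KO, and was read in 28 of 42 and 16 of 23 class II cells. Rfxap, a part of the RFX complex, stood at 42.9 against 37.3 and 45.2 against 39.3 CPM, with a log2 ratio of 0.20 in each library. On the class I route, 5 of 14 measured genes were higher and 0 lower. These were the peptide transporter gene Tap1 (log2 1.78 and 1.99), its partner Tapbp (1.76 and 1.85), the immunoproteasome subunits Psmb8 (1.62 and 1.59) and Psmb9 (1.95 and 2.33), and the non-classical chain H2-T23 (1.76 and 1.57). B2m, the class I light chain, had log2 ratios of -0.02 and 0.26.

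**Figure D2:**
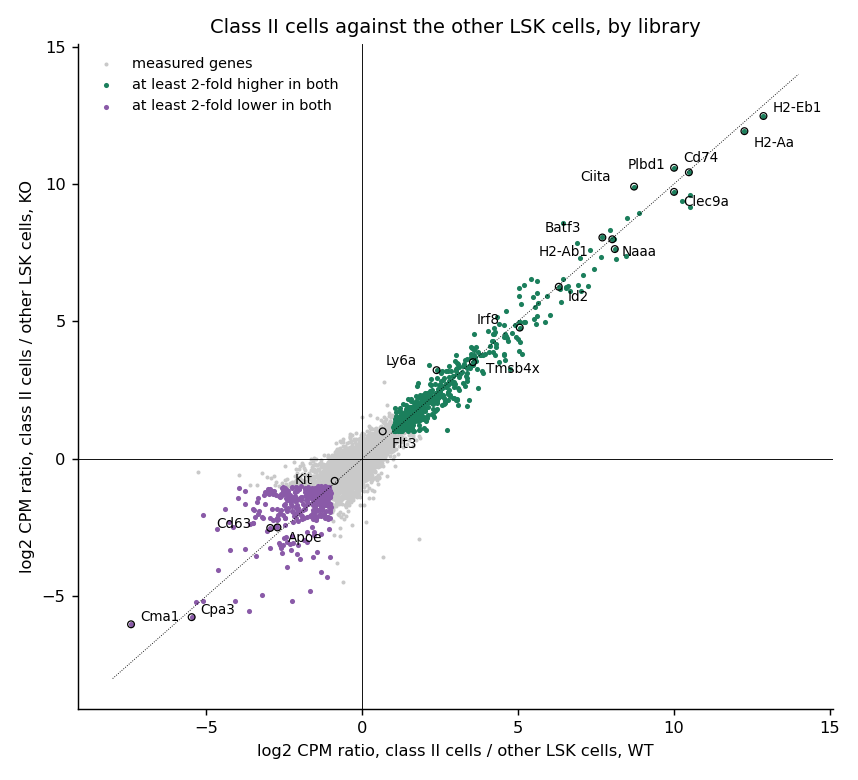
Log2 CPM ratio of class II cells over other LSK cells in WT (x axis) and KO (y axis) for each measured gene, with named genes marked. Class II genes such as H2-Aa at 12.27 and 11.93 lie at the top right, and the mast cell gene Cma1 at -7.41 and -6.02 at the bottom left.

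Of 28 dendritic transcription factors, 19 were measured, 9 were higher and 2 lower. The factors of the cDC1 branch were among the higher ones. Irf8 ranged from 1 to 71 UMIs in WT cells (median 23) and from 1 to 73 in KO (median 30), and stood at 1141 against 34.3 CPM in WT and 925 against 33.8 in KO. Granulocyte-monocyte-primed LSK cells, those with at least 20 UMIs of Mpo, Elane, Prtn3 and Ctsg, held 64.5 and 70.3 CPM of Irf8. Batf3 had 272 against 1.30 CPM in WT and 225 against 0.845 in KO, and was read in 42 of 42 and 22 of 23 class II cells. Id2, an inhibitor of E proteins, had 1424 against 17.9 CPM and 1448 against 18.9. Bcl6 (log2 6.39 and 5.70), Mycl (5.43 and 6.56), Klf4 (5.05 and 3.91) and Spi1, which encodes PU.1 (1.43 and 1.48), were higher as well. Zeb2 (-2.38 and -1.32) and Bcl11a (-1.26 and -1.25), which serve other dendritic or progenitor fates, were lower. Irf4, a factor of type 2 dendritic cells, had 1 UMI in each library, and Tcf4, the factor of plasmacytoid dendritic cells, had ratios of -0.63 and -0.59.

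Other genes near the top of the ranking are known from dendritic and phagocytic cells. The lysosomal protein gene Plbd1 stood at 448 against 0.313 CPM in WT and 424 against 0.307 in KO and was read in 42 of 42 and 22 of 23 cells. Naaa, a lysosomal amidase, had 173 against 0.662 and 156 against 0.614 CPM. Cadm1, an adhesion molecule of cDC1, had 130 against 0.633 and 114 against 0.691 CPM, and Tlr3, a receptor for double-stranded RNA, 97.6 against 0.342 and 49.1 against 0.317. The signalling lymphocyte receptor gene Slamf7 had log2 ratios of 10.53 and 9.61 and the allograft inflammatory factor Aif1 of 8.07 and 8.01. Mpeg1, which encodes perforin-2, had 6.93 and 6.32, and Lgals3, a galectin, 6.35 and 6.19. A run of PYHIN genes of the interferon-inducible Ifi200 family was also high, with log2 ratios of 8.89 and 8.96 for Ifi205, 7.07 and 6.69 for Ifi207 and 6.62 and 6.30 for Ifi211. These family members are near copies of each other, so the split of their UMIs is uncertain. Of 7 measured pattern receptors 4 were higher: Clec9a, Tlr3, Clec12a (3.36 and 2.83) and Unc93b1, the carrier of endosomal Toll-like receptors (3.37 and 3.29).

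Many endolysosomal and cytoskeletal genes were higher too. Of 19 measured lysosomal genes 11 were higher, led by Cst3, a secreted cathepsin inhibitor, at 11133 against 334 CPM in WT and 8921 against 282 in KO, and Psap, the saposin precursor, at 1185 against 68.8 and 1130 against 66.0. The lower 2 were Ctsd (-2.12 and -1.48) and Cd63 (-2.95 and -2.52), a tetraspanin of secretory granules. Of 21 measured actin and motility genes 17 were higher and 1 lower. Tmsb4x, the actin-binding thymosin, reached 22415 against 1906 CPM in WT and 20790 against 1814 in KO, and Actb had log2 ratios of 1.54 and 1.40. Ahnak (3.54 and 4.03) and Crip1 (2.79 and 2.82) were higher, and the capping protein gene Capg was lower (-2.39 and -1.12).

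Receptors for myeloid cytokines and chemokines were higher in 8 of 13 measured genes and lower in 2. Ccr2, a chemokine receptor of monocytes and dendritic precursors, stood at 265 against 5.47 CPM in WT and 230 against 6.22 in KO, and Csf1r at 35.4 against 10.5 and 34.9 against 9.16. Csf2ra (log2 1.73 and 1.84), Csf2rb (1.13 and 1.43), Ifngr1 (2.09 and 1.49) and Ifnar2 (1.21 and 1.36) were higher. Flt3, the receptor that drives dendritic development, was close to the limit at 110 against 69.8 CPM and 119 against 59.4, log2 ratios of 0.66 and 1.00. Kit, whose product is part of the gate, stood at 109 against 201 and 127 against 221 CPM. Genes of T cell costimulation were mostly under the measured level. Of 15 only 2 were measured, Cd86 at 45.0 against 4.61 and 27.1 against 4.35 CPM and Havcr2, which encodes TIM-3, at log2 ratios of 5.00 and 4.37. Cd80 and Cd40 had 0 UMIs in WT and 1 UMI each in KO.

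Stem cell genes were largely lower. Of 18 measured genes of the stem cell programme 12 were lower and 1 higher, with list medians of -1.92 in WT and -1.74 in KO. Without the cells with progenitor markers 15 were lower and the medians were -3.30 and -2.85. Hlf, a factor of stem cells, stood at 19.3 against 190 CPM in WT and 43.9 against 163 in KO, and 17 of its 18 WT and 33 of its 34 KO UMIs lay in the cells with progenitor markers. Meis1 (-1.91 and -2.19), Lmo2 (-1.73 and -1.60) and Hmga2, a factor of fetal stem cells (-2.64 and -1.96), were lower. Without those cells the ratios were -3.68 and -4.10 for Meis1, -2.39 and -2.70 for Lmo2 and -4.29 and -5.63 for Hmga2. The stem cell list that helped pick those cells shares genes with this programme, Hlf and Meis1 among them. The values without those cells are therefore in part fixed by that choice. The exception was Ly6a, which encodes Sca1, at 65.4 against 12.5 CPM in WT and 85.3 against 9.11 in KO. Ly6a was read in 19 of 42 and 11 of 23 class II cells, so its level came from part of the cells. Cd34 was near even at -0.08 and -0.20. The lowest genes of all were those of mast cells, which some other LSK barcodes hold. Tpsb2, a mast cell tryptase, had 0 UMIs in class II cells of both libraries, against 131 and 143 CPM in other cells, so log2 ratios were at most -5.34 and -5.20 against a floor of 3 counts per library. Cma1, a chymase, had 1 and 3 UMIs, against 182 and 252 CPM.

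Genes of the cell cycle, interferon response and early response gave a mixed picture. Of 24 measured G2 and M phase genes only Kif23 and Ube2c were at least 2-fold higher, a share near that of all genes, although the list medians were 0.71 and 0.79. Mki67 was read in 29 of 42 and 17 of 23 class II cells, at 365 against 190 CPM in WT and 431 against 248 in KO. Of 24 S phase genes 0 were higher and 1 lower. Of 15 interferon response genes 7 were higher, among them Irf7 (3.11 and 2.99) and Ifi27l2a (3.64 and 3.55), and Ifitm1 (-2.97 and -2.15) and Ifitm2 (-2.28 and -1.44) were lower. Of 14 immediate early genes 8 were higher, with Fos at 173 against 36.1 CPM in WT and 407 against 132 in KO. Fosb (3.34 and 3.01), Ier5 (2.23 and 2.26) and Klf2 (3.43 and 2.13) belonged to them, and Ier3 was lower (-1.83 and -1.12).

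The class II cells differed among themselves. Class II UMIs per 10000 gene UMIs ran from 3.77 to 156 in WT cells and from 4.17 to 192 in KO cells. Across cells, which share library and depth effects, Spearman correlations with this rate are given as descriptions over 42 and 23 cells. Cd74 followed it at 0.84 and 0.97, Tmsb4x at 0.78 and 0.85, Cst3 at 0.65 and 0.72 and H2-DMb1 at 0.51 and 0.87. Clec9a had 0.69 and 0.47 and Naaa 0.64 and 0.47. Ms4a6c ran the other way at -0.48 and -0.44, as did Bcl11a at -0.31 and -0.34. Regulators of the cDC1 branch and of class II genes followed the rate weakly or in 1 library only. Irf8 had 0.47 and 0.18, Batf3 0.01 and 0.71, Id2 0.06 and 0.16 and Ciita 0.27 and 0.05. The rate itself tended to be lower in deeper cells, with correlations of -0.19 and -0.42 with a cell's gene UMIs.

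Some class II cells stood apart. A first kind was 5 cells that held under 10 Irf8 UMIs, 2 in WT and 3 in KO. All 5 had 0 UMIs of Clec9a and of Naaa, and their Irf8 UMIs were 1 and 7 in WT and 5, 1 and 1 in KO. Batf3 was present in 4 of them with 1 to 4 UMIs, and their class II UMIs were 64 and 28 in WT and 32, 23 and 16 in KO. The KO ones were the 3 KO cells with the fewest class II UMIs. A second kind was 8 cells that carried 3 or more markers of stem, erythroid or granulocyte-monocyte progenitors, 3 in WT and 5 in KO. These were deep, with 54526 to 65236 gene UMIs in WT and 43665 to 85457 in KO, against at most 37126 and 41311 in the remaining class II cells. One KO cell was of both kinds. Whether the deep cells are 1 cell or a droplet with more than 1 cell was not tested. Without them several lower genes had still lower log2 ratios over other LSK cells, with -3.19 and -3.91 for Zeb2, -4.96 and -5.81 for Cd63, -4.20 and -2.42 for Capg and -5.78 and -3.72 for Ifitm1. In addition, 1 WT cell of 19402 gene UMIs had 7 of 10 lymphoid progenitor markers and held all the Ebf1 (10), Rag1 (8) and Rag2 (4) UMIs of WT class II cells.

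**Figure D3:**
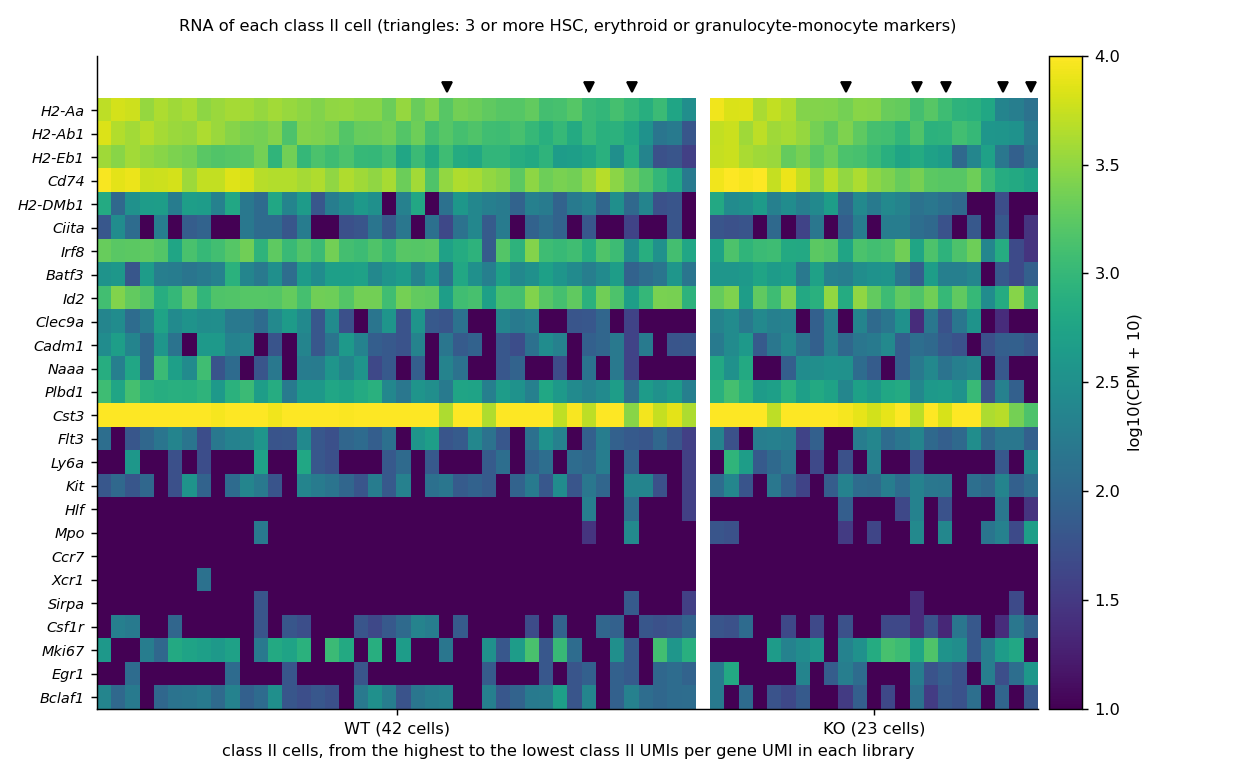
Heat map of log10(CPM + 10) for chosen genes (rows) in each of the 42 WT and 23 KO class II cells (columns, from the highest to the lowest class II UMIs per gene UMI); triangles mark the 8 cells with progenitor markers. H2-Aa, Cd74 and Cst3 are read in every cell, and Clec9a and Naaa are blank in the cells with under 10 Irf8 UMIs.

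The antibody tags were not used by the rule. Class II cells held fewer antibody UMIs in all than other LSK cells, with medians of 1326 against 3787 in WT and 4437 against 6108 in KO. As a median share of a cell's antibody UMIs, CD48 stood at 61.8% against 73.2% in WT and 61.6% against 75.8% in KO. CD117 (c-Kit) stood at 17.1% against 18.2% and 14% against 15.4%. Sca1 was higher, at 11.3% against 3.93% in WT and 11.9% against 2.91% in KO, and only 5 of 42 and 2 of 23 class II cells lay under the median of other cells. The same tag as raw UMIs gave 131 against 155 in WT and 535 against 172 in KO, so in WT the higher share of Sca1 went with fewer antibody UMIs in all. CD201 (1.80% against 0.589% in KO, 0.362% against 0.239% in WT), CD150 and CD34 also took larger shares. CD34 took 3.15% against 1.49% in WT and 2.5% against 1.76% in KO. In raw UMIs the direction of these 3 tags turned in WT, with 7 against 13 for CD150, 5.5 against 10 for CD201 and 38.5 against 56 for CD34. In raw UMIs CD48 and CD117 were lower in both libraries, with CD117 at 224.5 against 696 in WT and 588 against 1004 in KO. Empty droplets had shares of 21.6% and 22.7% for Sca1, 33.7% and 31.8% for CD48 and 18.3% and 18.5% for CD117, and for every tag but CD117 the median share of class II cells lay between those of other cells and empty droplets in both libraries. The part of free antibody in these shares was not tested.

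**Figure D4:**
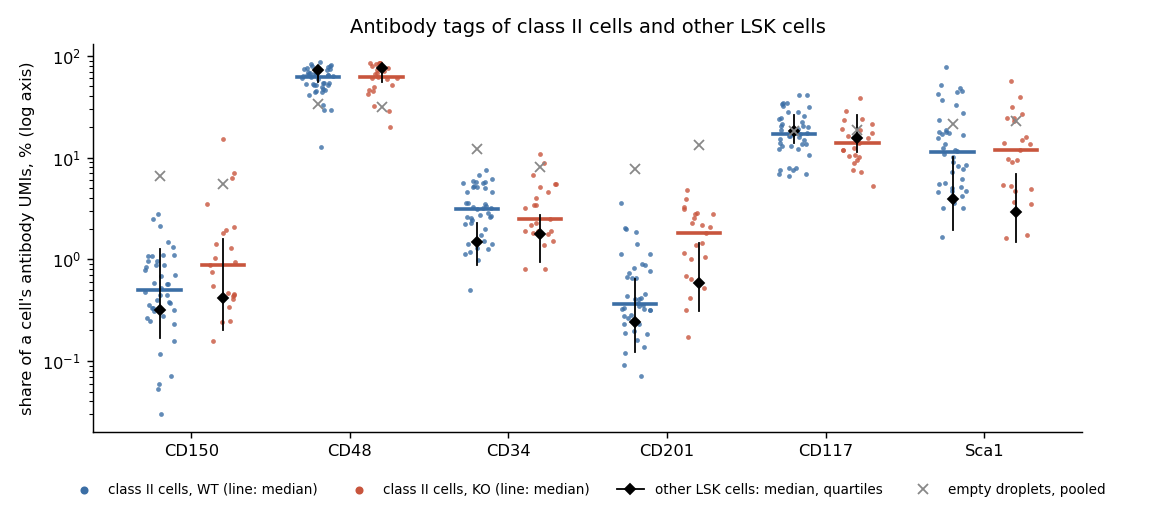
Share of a cell's antibody UMIs for the 6 tags, with points for class II cells, diamonds and lines for the median and quartiles of other LSK cells and crosses for pooled empty droplets, by library. Sca1 is higher in class II cells of both libraries (11.3% and 11.9%) and CD48 lower (61.8% and 61.6%).

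For the genotype comparison the deleted gene was read first. Bclaf1, which encodes a nuclear factor of RNA processing (chr10:20310512-20342644), was read in 37 of 42 WT and 15 of 23 KO class II cells. It had 0 to 13 UMIs per WT cell (median 2) and 0 to 9 per KO cell (median 1). Its level was 142 CPM in WT and 51.7 in KO, a log2 ratio of KO over WT of -1.45 (-2.0 to -0.93), close to the -1.52 in other LSK cells. The cells overlap, since several WT cells had 0 UMIs. The sources used here do not give the deleted part, and 3' reads outside it would still be counted.

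Of 2718 genes with at least 50 CPM in class II cells of either library, 48 (1.77%) were at least 2-fold higher and 11 (0.405%) at least 2-fold lower in KO, and for 6 the counting interval lay wholly past 2-fold. The median ratio was 0.02 in class II cells and 0.04 for the same genes in other LSK cells. In 7 of the 59 genes a single class II cell held over 50% of a library's UMIs. Without the 8 cells with progenitor markers, 22 of the 48 higher and 4 of the 11 lower genes still passed 2-fold, among 49 higher and 33 lower in all. Presentation genes were near even. H2-Aa had a log2 ratio of -0.14 (-0.23 to -0.04), H2-Ab1 of -0.09, H2-Eb1 of 0.10 and Cd74 of -0.15 (-0.23 to -0.08), and of 9 measured loading genes 0 passed 2-fold in either direction. Irf8 had -0.30 (-0.44 to -0.16), Batf3 -0.28 and Id2 0.02. Clec9a had -0.45 (-0.88 to -0.02), and Tlr3 had -0.99 (-1.58 to -0.43), just short of 2-fold, against -0.11 in other cells.

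Immediate early genes were the list with the most genes past 2-fold, 6 of 13 measured, with a median of 0.83 in class II cells and 0.95 in other LSK cells. Egr1, an early response factor, had 0 to 4 UMIs per WT cell (median 0) and 0 to 21 per KO cell (median 2), 26.8 and 115 CPM in all, a log2 ratio of 2.10 (1.45 to 2.80) against 0.95 in other cells. Jun, a subunit of AP-1, had 0 to 22 UMIs per WT cell (median 4) and 0 to 96 per KO cell (median 10), 247 and 634 CPM, with 1.36 (1.13 to 1.59) against 1.03, and 0.65 without the cells with progenitor markers. Fos, its partner, had 0 to 13 UMIs per WT cell (median 3) and 0 to 44 per KO cell (median 13), with 1.24 (0.96 to 1.52) against 1.87. The ranges of all 3 genes overlap between libraries. Junb (1.18 against 0.85), Dusp1 (1.27 against 1.48) and Zfp36 (1.04 against 1.32) were the other 3 genes past 2-fold. The histone gene Hist1h2ap had close ratios in both sets of cells (1.03 against 1.00), and 0.94 in class II cells without those with progenitor markers.

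Mpo, the granulocyte peroxidase gene, was over 2-fold higher in KO class II cells, at a log2 ratio of 2.37 (1.66 to 3.15) against 0.25 in other cells. It was read in 3 of 42 and 10 of 23 cells at 21.4 and 111 CPM, beside 291 and 346 CPM in other LSK cells. The granulocyte-monocyte marker list was passed by 0 WT and 4 KO class II cells, and those 4 held 78 of the 86 Mpo UMIs of KO class II cells. Without the cells with progenitor markers Mpo had 3 UMIs in WT and 7 in KO, 3.97 and 15.6 CPM. Cebpb, a myeloid factor, had 1.27 (0.66 to 1.90) against 0.18, and the mitotic gene Hmmr 1.40 (0.92 to 1.90) against 0.49. Zeb2 had 1.27 with all cells and -0.51 without the cells with progenitor markers. Among the lower genes, S100a6 had 146 CPM in WT and 58.1 in KO, a ratio of -1.33 (-1.85 to -0.83) against -0.19, and it was read in 33 of 42 and 18 of 23 cells. Gm34680 stood at 78.3 and 34.9 CPM, a ratio of -1.17 (-1.86 to -0.51). Without the cells with progenitor markers S100a6 had -0.98 and Gm34680 -0.89, short of 2-fold.

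**Figure D5:**
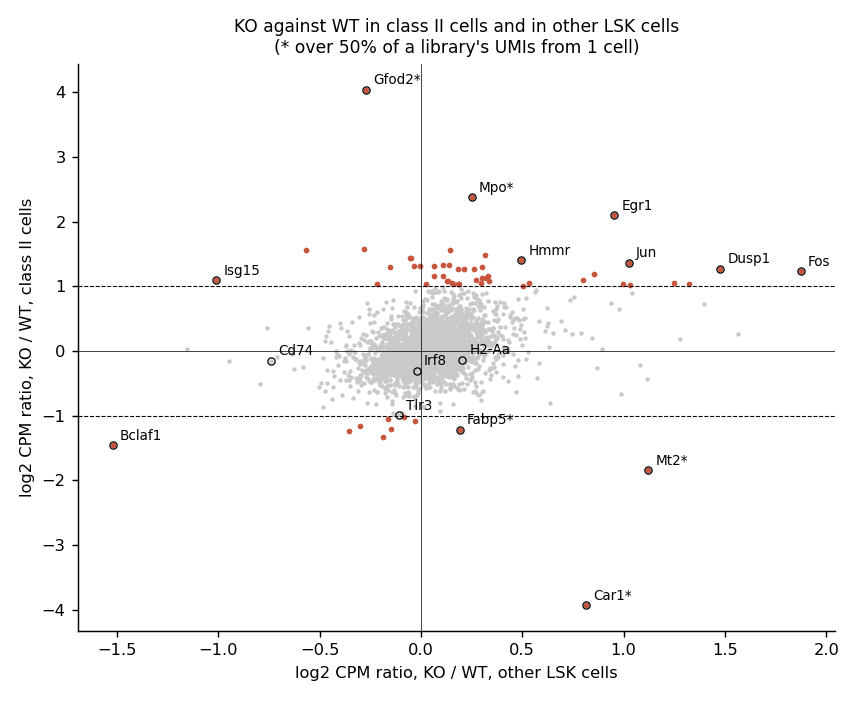
Log2 CPM ratio of KO over WT in other LSK cells (x axis) and in class II cells (y axis) for each measured gene, with named genes labelled; a star marks genes of which 1 class II cell holds over 50% of a library's UMIs. Bclaf1 lies low on both axes (-1.52 and -1.45), Fos and Jun high on both, and H2-Aa near 0 on the y axis.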

How the data were processed

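The deposited matrices hold raw UMI counts of genes and antibody tags for every barcode, not filtered to cells. The submitters' processing notes name Cell Ranger 4.0.6, genome build mm10, and Seurat and DESeq without versions. Libraries were 10x 3' version 3.1, with 20000 cells sorted and 10000 loaded per genotype, per the labels' protocols. The 4 samples are the RNA and antibody parts of 1 WT and 1 KO library.

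The members and all gene, marker and alternative lists were chosen with earlier results of these data known. Sums of UMIs over the cells of a library were given as CPM. Ratios carry exact conditional binomial intervals of 2 Poisson counts. A count of 0 was set against a floor of 3 counts per library. Named genes were Bclaf1, the markers, the genes of the lists, the 25 highest and 12 lowest genes of class II cells (50 CPM minimum, ranked by the smaller ratio of both libraries) and the 8 highest and 8 lowest of KO over WT (ranked by the interval bound nearest to 0). Haemoglobin, sex-linked, mitochondrial and ribosomal protein genes were left out of the rankings. Some of the genes so named are not reported here. No doublet caller was run; class II cells with 3 or more progenitor markers were left out as an alternative chosen after seeing the data. The scripts were tested on simulated data. Alternatives changed the cell and class II minimums, depth, scaling, free RNA, the CPM minimum and the tag scale. Python 3.11.15, numpy 2.4.6, scipy 1.17.1, pandas 2.3.3 and matplotlib 3.10.9 were used.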

Additional observations from a re-analysis of the deposited data

Results flagged for a closer look

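The 5 genes below were past 2-fold in KO over WT within class II cells. Their log2 ratios had opposite signs in class II cells and in other LSK cells, with both intervals away from 0. The difference between the 2 sets of cells was not tested. Genes short of 2-fold in class II cells, such as Ifitm1 (0.52 against -0.30) and Car2 (-0.75 against 0.29), had opposite signs as well. Isg15, a ubiquitin-like interferon-induced gene, had 1.09 in class II cells (0.57 to 1.63) and -1.01 in other cells. It was read in 15 of 42 WT and 10 of 23 KO class II cells, at 51.5 and 110 CPM. For the other 4 of these 5 genes a single class II cell held over 50% of a library's UMIs. Mt2, a metallothionein, had -1.84 against 1.12, and 1.64 without the class II cell that held the most Mt2 UMIs in each library. Fabp5, a fatty acid-binding protein, had -1.22 against 0.19. Gfod2 had 4.04 against -0.27. Car1, a carbonic anhydrase of erythroid cells, had 55 UMIs in 1 WT class II cell and 0 in KO, a ratio of at most -3.93 against the floor of 3 counts, and 0.81 in other cells. Without the class II cells with progenitor markers Gfod2 had 0 UMIs in WT and 1 in KO, Car1 0 in both, and the ratios were -0.56 for Fabp5 and 1.67 for Isg15. Car1 is on the erythroid list that helped pick those cells, so its value is in part fixed by that choice.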

How the results depend on the processing

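Under all alternatives the share of class II cells ran from 0.710 to 0.897% in WT and from 0.658 to 1.24% in KO. The count of genes higher in class II cells was 819 with no CPM minimum. The count lower was 620 with per-cell CPM, 792 after subtracting the empty-droplet profile and 748 without the cells with progenitor markers. For KO over WT, subtraction gave 144 higher and 28 lower, no CPM minimum gave 626 and 245, and leaving out the cells with progenitor markers gave 33 lower. Of 2984 gene values under alternatives, 2398 moved little, 579 moved and 7 reversed. The reversed values were S100a4 in KO class II cells over other cells (-0.42 with a class II minimum of 20, -0.24 without the Irf8-low cells, -0.40 without the cell with most UMIs), Mt2 (KO over WT 2.62 without the 5% of cells with most UMIs, 1.60 without the cells with progenitor markers, 1.64 without the cell with most UMIs) and Zeb2 (-0.51 without the cells with progenitor markers). These settings use fewer cells; which property of the cells left out moved the values was not tested, and the cause was not tested for the other settings. Tag differences in log2, WT class II over other cells, per gene UMI and then raw, were -0.50 and -0.81 for CD150, -1.63 and -1.73 for CD48, -0.33 and -0.53 for CD34, -0.39 and -0.76 for CD201, -1.39 and -1.63 for CD117, and 0.11 and -0.24 for Sca1. Raw CD48 in KO gave -0.88. At 8000 UMIs per cell 14 KO class II cells (60.9%) passed the pan-dendritic list, against 23 at full depth. Of other KO cells 0.331% passed it at 8000 UMIs and 11.3% at full depth. In WT 27 class II cells (64.3%) passed at 8000 UMIs and 39 at full depth, against 0.659% and 9.42% of other cells. No paired analysis was possible because each genotype is 1 library. With 42 and 23 cells, genes under about 20 CPM gave few UMIs per library.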
